A study of Arabidopsis thaliana with 4 samples.

Results

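The genes described here are 56 nuclear genes of Arabidopsis thaliana that encode proteins of the cytosolic ribosome, 25 of the small (40S) subunit and 31 of the large (60S) subunit with its stalk. They were chosen by locus code from a written list, by a rule that uses no measured value, but with earlier results of these data known. All 56 were found among the 27416 gene rows of each library and passed the filter on low values (1 RPKM in at least 2 libraries). They belong to 30 ribosomal protein families, of which 19 are represented by more than 1 paralogue and hold 45 of the 56 genes.

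Messenger RNA was sequenced from whole Col-0 seedlings of a pair of transgenic genotypes, both in the cry1 mutant background, which lacks the blue-light receptor cryptochrome 1 (CRY1). The first, CNT1 (35S::CNT1-NLS-YFP;cry1, 2 libraries), overexpressed the N-terminal domain of CRY1 fused to a signal for import into the nucleus and to yellow fluorescent protein. The other, CNT1-G283E (35S::CNT1-G283E-NLS-YFP;cry1, 2 libraries), overexpressed the same fusion with the G283E substitution. All seedlings had a growth time of 4.5 days, the last 4 of them under blue light at 15 μmol/m2/s, on medium with 1% sucrose after 3 days of cold and 12 h of white light. The 35S promoter drives both transgenes broadly across the plant, and the labels do not say whether each genotype is represented by 1 transgenic line, nor whether replicates came from separate cultures, so p-values measure the spread between these libraries, which may be technical. Levels are RPKM, reads scaled to transcript length and library depth. The depths, recovered from the RPKM values, were 28524534 and 28098772 reads in CNT1 and 27065174 and 24436863 reads in CNT1-G283E. CRY1 itself had 823 and 825 RPKM in CNT1, against 1152 and 1036 RPKM in CNT1-G283E. That row cannot separate transgene from endogenous transcript and does not check the labels.

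The cytosolic ribosome translates the messenger RNAs of nuclear genes. Each subunit is a ribosomal RNA scaffold with a set of proteins present in about equal number, so ribosomal protein genes are usually expressed together, at a high level, and most strongly in growing and dividing cells. In plants most of these proteins are encoded by several paralogues, and mutants of single paralogues often have narrow, pointed leaves. In Arabidopsis, short promoter motifs named the telo-box and site II are common in this class of genes.

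Most transcripts of the listed cytosolic ribosomal proteins were moderately more abundant in CNT1 than in CNT1-G283E seedlings. Their summed level was 10060 and 9997 RPKM in CNT1, against 8076 and 8022 RPKM in CNT1-G283E, a ratio of 1.25. This sum was 1.37% and 1.36% of all RPKM in CNT1 and 1.12% and 1.11% in CNT1-G283E. The replicates of a genotype lay close together, with a median difference of 2.11% of the level in CNT1 and 2.77% in CNT1-G283E.

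With limma on log2(RPKM + 1) and Benjamini-Hochberg adjustment over the 19201 genes tested, 49 of the 56 genes were higher in CNT1 at an adjusted p under 0.05, where 31.1% of all genes tested were called higher. None of the 56 was lower, where 29% of all genes tested were called lower. At an unadjusted p under 0.05 the number lower was also 0 with limma, and 0 with limma-voom on recovered reads. Among the 1314 genes whose mean reached 100 RPKM, 43.8% were higher and 39.9% were lower, and 38 of the 40 ribosomal protein genes at that level were higher. Both CNT1 libraries lay above both CNT1-G283E libraries for 52 of the 56 genes, which held for 42.9% of all genes tested.

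The changes were small and lay close together. The log2 fold change (CNT1 minus CNT1-G283E on log2(RPKM + 1)) had a median of 0.29 over the 56 genes, with an interquartile range of 0.23 to 0.40, against a median of 0.02 and a range of -0.27 to 0.28 over all genes tested. The width of the interquartile range was 0.17 over the 56 genes, against 0.81 over the other 1274 genes of mean 100 RPKM or more. Of the 56 genes, 32 lay within 0.1 of their median. The subunits gave close values: 21 of 25 small-subunit genes were higher, with a median of 0.28, and 28 of 31 large-subunit and stalk genes were higher, with a median of 0.29. Only 1 gene rose by at least 1.5-fold, where 10.7% of all genes tested did so.

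**Figure D1:**
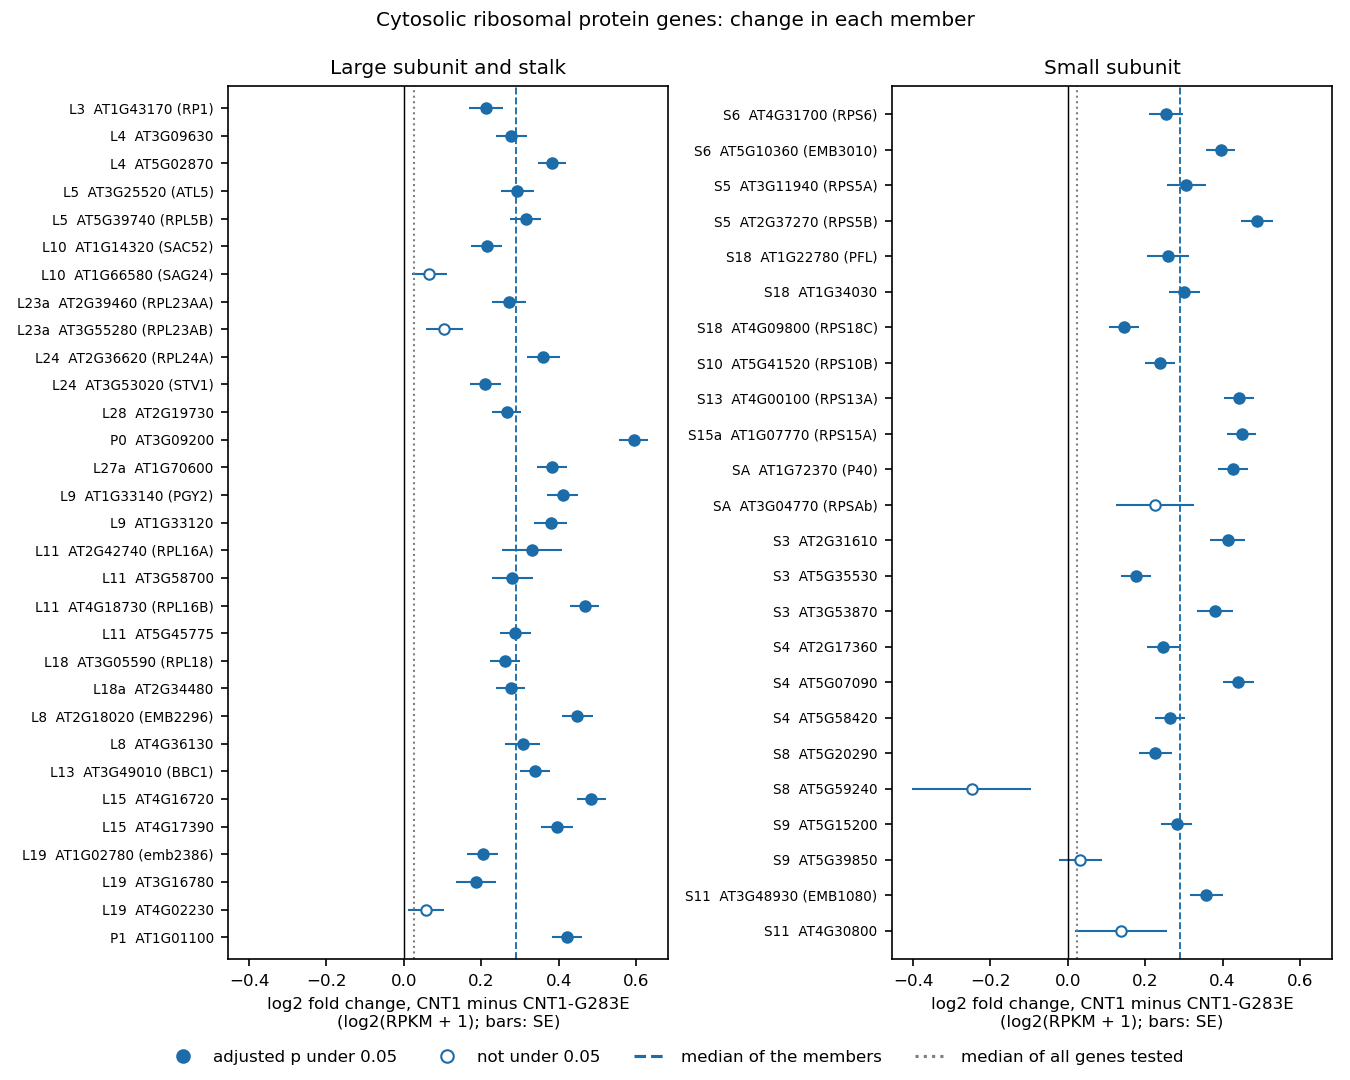
Log2 fold change of 55 of the 56 genes, CNT1 minus CNT1-G283E, with its standard error, ordered by family within the large subunit with the stalk (left) and the small subunit (right); filled points have an adjusted p under 0.05. The points cluster around the median of 0.29 (dashed line), to the right of the median of all genes tested, 0.02 (dotted line), and AT5G59240 is the only gene drawn below 0.

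Families were summed over the paralogues listed, as a measure of how much transcript there was for each kind of ribosomal protein. All 30 sums were higher in both CNT1 libraries than in both CNT1-G283E libraries, which held for 42.9% of single genes tested. The sums are made of the 56 genes counted above and are not a separate result. The family means ran from 168 to 573 RPKM in CNT1 and from 139 to 509 RPKM in CNT1-G283E. The ratio of the means had a median of 1.26 and ran from 1.12 for L19 to 1.51 for P0. A family sum leaves out paralogues that are not among the 56 genes.

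The stalk is the flexible arm of the large subunit that recruits elongation factors, with P0 at its base and acidic proteins such as P1 bound to it. AT3G09200 (chr3:2823088-2825241, minus strand, TAIR10.1), annotated as an L10 family protein and the P0 of eukaryotic naming, had 257 and 263 RPKM in CNT1, against 171 and 173 RPKM in CNT1-G283E. This was the largest rise among the 56 genes, with a log2 fold change of 0.59 ± 0.038 (SE; adjusted p = 6.26e-06), and the groups did not overlap. Of its exon bases 6.85% overlap a neighbour on the same strand. AT1G01100, a 60S acidic protein of the P1 family, had 205 and 198 RPKM in CNT1, against 149.6 and 151 RPKM in CNT1-G283E, and its log2 fold change was 0.42 ± 0.039 (SE; adjusted p = 4.98e-05).

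The proteins L3 and L8 lie close to the catalytic centre of the large subunit, where peptide bonds are made. RP1 (AT1G43170, family L3), among the most abundant transcripts of the set, had 356 and 375 RPKM in CNT1, against 322 and 309 RPKM in CNT1-G283E. Its log2 fold change was 0.21 ± 0.044 (SE; adjusted p = 0.00403), below the median of the set, and without CNT1 replicate 2 its adjusted p was 0.0625. EMB2296 (AT2G18020, family L8, annotated L2), a gene whose loss arrests embryos, had 337 and 336 RPKM in CNT1, against 251 and 241 RPKM in CNT1-G283E. It changed by 0.45 ± 0.04 (SE; adjusted p = 4.16e-05) on the log2 scale, with no overlap between the genotypes. Its paralogue AT4G36130 had 88.2 and 85.9 RPKM in CNT1, against 72.5 and 68.0 RPKM in CNT1-G283E, with a log2 fold change of 0.31, and 23.9% of its exon bases overlap a gene on the opposite strand, whose reads cannot be told apart here because the use of strand in counting is not given.

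L4 lines the tunnel through which the new protein leaves, and mutants of its genes affect vacuolar sorting and leaf polarity in Arabidopsis. AT3G09630 had 163 and 170.5 RPKM in CNT1, against 138 and 137 RPKM in CNT1-G283E, and AT5G02870 had 198 and 199 RPKM in CNT1, against 153 and 151 RPKM in CNT1-G283E. Both L4 genes were higher in CNT1, with log2 fold changes of 0.28 ± 0.04 (SE; adjusted p = 0.00058) and 0.38 ± 0.037 (SE; adjusted p = 6.62e-05). L23a sits at the mouth of the tunnel. RPL23AA (AT2G39460) had 173 and 173 RPKM in CNT1, against 138 and 148 RPKM in CNT1-G283E, and a log2 fold change of 0.27. Its less abundant paralogue RPL23AB (AT3G55280) had 67.0 and 69.1 RPKM in CNT1, against 61.3 and 65.2 RPKM in CNT1-G283E, and its difference of 0.10 ± 0.047 (SE; adjusted p = 0.0862) did not pass the test, although the libraries did not overlap. It passed without CNT1-G283E replicate 2 (adjusted p = 0.0231).

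L5 and L11 bind the 5S ribosomal RNA and enter the large subunit with it. ATL5 (AT3G25520, family L5) had 242 and 228 RPKM in CNT1, against 191 and 192 RPKM in CNT1-G283E, a log2 fold change of 0.29 ± 0.043 (SE; adjusted p = 0.000644). RPL5B (AT5G39740) had 173 and 171 RPKM in CNT1, against 135 and 141 RPKM in CNT1-G283E, a log2 fold change of 0.31 ± 0.04 (SE; adjusted p = 0.000307), within 1 standard error of that of ATL5. The 4 genes of the L11 family spanned a wide range of levels. RPL16B (AT4G18730), the most abundant, had 174 and 175 RPKM in CNT1, against 124 and 127 RPKM in CNT1-G283E, and changed by 0.47 ± 0.038 (SE; adjusted p = 2.36e-05), among the 5 largest rises. An opposite-strand gene overlaps 10.6% of its exon bases. RPL16A (AT2G42740), the least abundant, had 14.4 and 12.95 RPKM in CNT1, against 10.2 and 11.1 RPKM in CNT1-G283E. Its log2 fold change was 0.33 ± 0.078 (SE; adjusted p = 0.0075), and AT3G58700 and AT5G45775 lay between them in level, with log2 fold changes of 0.28 and 0.29. All 4 genes rose, RPL16A with an adjusted p of 0.0705 without CNT1 replicate 1.

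L9 is known in Arabidopsis from PIGGYBACK2, a gene of leaf patterning. PGY2 (AT1G33140) had 264 and 259.8 RPKM in CNT1, against 201 and 193 RPKM in CNT1-G283E, and its neighbour on chromosome 1, AT1G33120, had 183 and 179.6 RPKM in CNT1, against 143 and 136 RPKM in CNT1-G283E. Both were higher in CNT1, with log2 fold changes of 0.41 ± 0.04 (SE; adjusted p = 6.62e-05) and 0.38 ± 0.041 (SE; adjusted p = 0.000126). The coding sequences of these genes are 99.1% identical, and 58.0% and 53.7% of their 50-base exonic stretches occur elsewhere in the genome. How the authors treated reads that match several genes is not given, so the values of each L9 gene are uncertain. Their sum was 447 and 439 RPKM in CNT1, against 343 and 329 RPKM in CNT1-G283E. For 39 of the 56 genes no such stretch occurs elsewhere, for 9 under 1% of stretches do, and for 6 between 5% and 10%.

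L24 helps ribosomes to resume translation after a short upstream reading frame, and STV1 (SHORT VALVE1) is known in Arabidopsis for its part in pistil patterning. STV1 (AT3G53020) had 205 and 197 RPKM in CNT1, against 174 and 173 RPKM in CNT1-G283E, a log2 fold change of 0.21 ± 0.039 (SE; adjusted p = 0.00235). Its less abundant paralogue RPL24A (AT2G36620) had 97.4 and 95.9 RPKM in CNT1, against 73.4 and 76.8 RPKM in CNT1-G283E, with the larger log2 fold change of the pair, 0.36 ± 0.042 (SE; adjusted p = 0.00018). L19 forms a bridge to the small subunit. emb2386 (AT1G02780) had 411 and 399 RPKM in CNT1, against 352 and 350.0 RPKM in CNT1-G283E, with a log2 fold change of 0.20 ± 0.039 (SE; adjusted p = 0.00278), and an adjusted p of 0.0539 without CNT1 replicate 1. AT3G16780 had 41.5 and 40.8 RPKM in CNT1, against 34.7 and 37.5 RPKM in CNT1-G283E, and rose by 0.19. Its adjusted p was 0.0960 without CNT1 replicate 1 and 0.0624 without CNT1 replicate 2. AT4G02230, the third L19 gene, had 127 and 126 RPKM in CNT1, against 127 and 117 RPKM in CNT1-G283E. Its genotypes overlapped, and its difference of 0.06 ± 0.046 (SE; adjusted p = 0.32) did not pass the test, but did without CNT1-G283E replicate 1 (adjusted p = 0.0345).

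The L15 family held another of the 5 largest rises. AT4G16720 had 252 and 246 RPKM in CNT1, against 178 and 177 RPKM in CNT1-G283E, a log2 fold change of 0.48 ± 0.038 (SE; adjusted p = 1.88e-05), and AT4G17390 had 185 and 177 RPKM in CNT1, against 139 and 136 RPKM in CNT1-G283E, a log2 fold change of 0.40. The other large-subunit genes, BBC1 (L13), RPL18 (L18), AT2G34480 (L18a), AT1G70600 (L27a) and AT2G19730 (L28), each the only listed gene of its family, all rose, with log2 fold changes of 0.34, 0.26, 0.28, 0.38 and 0.27.

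L10 joins the large subunit late in its assembly. SAC52 (AT1G14320), found in Arabidopsis as a suppressor of the dwarf mutant acaulis5, had 364 and 357 RPKM in CNT1, against 316 and 305 RPKM in CNT1-G283E, a log2 fold change of 0.21 ± 0.04 (SE; adjusted p = 0.00248). SAG24 (AT1G66580), annotated as senescence associated, had 142 and 141 RPKM in CNT1, against 140.0 and 131 RPKM in CNT1-G283E. Its difference of 0.07 ± 0.045 (SE; adjusted p = 0.24) did not pass the test, and the gap between the genotypes was smaller than that between the replicates of CNT1-G283E. Without CNT1-G283E replicate 1 it passed (adjusted p = 0.0278).

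In the small subunit, S6 is the protein that S6 kinase phosphorylates downstream of the TOR growth pathway. RPS6 (AT4G31700) had 189 and 192 RPKM in CNT1, against 155 and 164 RPKM in CNT1-G283E, a log2 fold change of 0.25 ± 0.043 (SE; adjusted p = 0.00142). EMB3010 (AT5G10360), its paralogue, had 225 and 224 RPKM in CNT1, against 168 and 173 RPKM in CNT1-G283E, a log2 fold change of 0.40 ± 0.038 (SE; adjusted p = 6.17e-05). Both S6 genes were higher in CNT1. S5 lies where messenger RNA leaves the small subunit, and the RPS5A promoter is widely used to drive genes in dividing cells. RPS5A (AT3G11940) had 185 and 185 RPKM in CNT1, against 157 and 142 RPKM in CNT1-G283E, and changed by 0.31 ± 0.052 (SE; adjusted p = 0.00134). RPS5B (AT2G37270) had 101 and 99.7 RPKM in CNT1, against 72.7 and 69.7 RPKM in CNT1-G283E. At 0.49 ± 0.042 (SE; adjusted p = 3.1e-05) it had the second largest rise of the 56 genes.

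S13 and S18 are known in Arabidopsis from the pointed-leaf mutants of their genes. RPS13A (AT4G00100) had 187 and 191 RPKM in CNT1, against 140.4 and 138 RPKM in CNT1-G283E, a log2 fold change of 0.44 ± 0.038 (SE; adjusted p = 3.44e-05). PFL (AT1G22780, family S18) had 102 and 95.1 RPKM in CNT1, against 79.1 and 85.4 RPKM in CNT1-G283E, a log2 fold change of 0.26 ± 0.054 (SE; adjusted p = 0.00415). The other S18 genes, AT1G34030 and RPS18C (AT4G09800), rose by 0.30 and 0.14, so that the most abundant of the family, RPS18C, had the smallest value. The adjusted p of RPS18C was 0.130 without CNT1 replicate 1 and 0.0695 without CNT1 replicate 2. RPS15A (AT1G07770, family S15a) had 246 and 251 RPKM in CNT1, against 182 and 182 RPKM in CNT1-G283E, with a log2 fold change of 0.45 ± 0.037 (SE; adjusted p = 2.85e-05), also among the 5 largest. RPS10B (AT5G41520) rose by 0.24.

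SA, the counterpart of the animal laminin receptor precursor, is needed for maturation of the small subunit. P40 (AT1G72370) had 264 and 274 RPKM in CNT1, against 200.5 and 198 RPKM in CNT1-G283E, a log2 fold change of 0.43 ± 0.039 (SE; adjusted p = 4.84e-05). RPSAb (AT3G04770) had 4.83 and 4.14 RPKM in CNT1, against 3.69 and 3.68 RPKM in CNT1-G283E. It contributed under 2% of the SA transcripts, and its difference of 0.22 ± 0.10 (SE; adjusted p = 0.0896) did not pass the test. S3 and S4 lie around the entry of the messenger RNA channel and the body of the subunit. The 3 S3 genes, AT2G31610, AT5G35530 and AT3G53870, rose by 0.41, 0.18 and 0.38, and the 3 S4 genes, AT2G17360, AT5G07090 and AT5G58420, by 0.25, 0.44 and 0.26. Without CNT1 replicate 1 the adjusted p of AT5G35530 was 0.0706. In the S11 family, EMB1080 (AT3G48930) rose by 0.36. AT4G30800, of the same family, had 4.25 and 3.98 RPKM in CNT1, against 3.21 and 4.14 RPKM in CNT1-G283E. Its genotypes overlapped, and its difference of 0.14 ± 0.12 (SE; adjusted p = 0.35) did not pass the test, and changed sign without CNT1-G283E replicate 1, to -0.0065.

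The S8 and S9 families each held 1 abundant and 1 scarce paralogue, and only the abundant one passed the test. AT5G20290, the S8 gene with the highest level of the set (chr5:6851341-6853106, minus strand), had 433 and 412 RPKM in CNT1, against 363 and 359 RPKM in CNT1-G283E, a log2 fold change of 0.23 ± 0.042 (SE; adjusted p = 0.00238). AT5G59240, the other S8 gene (chr5:23902462-23903767, minus strand), had 1.23 and 0.706 RPKM in CNT1, against 1.29 and 1.34 RPKM in CNT1-G283E, resting on 30 and 17 recovered reads in CNT1 and 30 and 28 in CNT1-G283E, known up to a whole-number factor of the fitted length. Its difference of -0.25 ± 0.15 (SE; adjusted p = 0.199) did not pass the test, and so few reads limit its precision. AT5G15200, the abundant S9 gene (chr5:4934810-4936429, minus strand), had 314 and 308 RPKM in CNT1, against 260.0 and 251 RPKM in CNT1-G283E, a log2 fold change of 0.28 ± 0.039 (SE; adjusted p = 0.000503). AT5G39850, the scarce S9 gene (chr5:15949910-15951475, plus strand), had 19.1 and 19.5 RPKM in CNT1, against 19.2 and 18.5 RPKM in CNT1-G283E, resting on 478 and 481 reads in CNT1 and 456 and 397 reads in CNT1-G283E. Its libraries overlapped between the genotypes, with a difference of 0.03 ± 0.055 (SE; adjusted p = 0.642).

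These 4 genes are shown with the 250 bases before their annotated start, read from the TAIR10.1 genome, because each pair differs more than 10-fold in level and only the abundant paralogue of each carries site II matches before its start. The choice was made after the values were seen, and not all pairs so far apart in level were like this. In L11 the scarce RPL16A held 1 such match and the abundant RPL16B 0, and in SA both P40 and RPSAb held 0. The S11 pair of EMB1080 and AT4G30800, with 2 and 0, was like the pairs shown, but its sequences are not given. Sequences run 5′ to 3′ along the gene, and capitals mark the telo-box AAACCCTA, site II TGGGCC or TGGGCT and the TATA box TATAAA on either strand, where they lie wholly within the bases shown. The intervals are chr5:6853107-6853356, minus strand for AT5G20290, chr5:23903768-23904017, minus strand for AT5G59240, chr5:4936430-4936679, minus strand for AT5G15200 and chr5:15949660-15949909, plus strand for AT5G39850.
AT5G20290: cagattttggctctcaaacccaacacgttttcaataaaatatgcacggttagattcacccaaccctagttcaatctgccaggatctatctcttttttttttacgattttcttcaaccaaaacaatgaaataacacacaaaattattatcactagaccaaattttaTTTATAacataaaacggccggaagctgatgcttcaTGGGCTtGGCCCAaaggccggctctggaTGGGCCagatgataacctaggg
AT5G59240: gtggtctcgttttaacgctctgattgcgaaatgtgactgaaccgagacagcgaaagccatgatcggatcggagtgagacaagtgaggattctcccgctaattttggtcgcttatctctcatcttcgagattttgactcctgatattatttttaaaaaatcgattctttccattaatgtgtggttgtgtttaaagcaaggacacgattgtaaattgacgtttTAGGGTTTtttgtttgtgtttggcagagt
AT5G15200: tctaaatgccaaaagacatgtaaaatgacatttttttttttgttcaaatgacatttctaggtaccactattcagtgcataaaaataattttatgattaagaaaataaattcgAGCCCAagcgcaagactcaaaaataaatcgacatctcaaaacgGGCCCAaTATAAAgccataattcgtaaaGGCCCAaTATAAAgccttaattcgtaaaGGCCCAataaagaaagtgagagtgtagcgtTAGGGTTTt
AT5G39850: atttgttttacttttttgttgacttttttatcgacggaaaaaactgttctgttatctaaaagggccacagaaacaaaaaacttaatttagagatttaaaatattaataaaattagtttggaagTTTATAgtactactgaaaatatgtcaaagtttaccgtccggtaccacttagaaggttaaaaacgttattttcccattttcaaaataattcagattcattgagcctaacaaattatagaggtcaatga
Positions are those of the first base of a match, with negative numbers before the start. AT5G20290 held 3 site II matches before its start and a telo-box across it, first base at -5. AT5G59240 held a telo-box at -29 and no site II match. AT5G15200 held 4 site II matches, at -138, -95, -67 and -39, and a telo-box at -9. AT5G39850 held no telo-box, and its 2 site II matches lay after the start, at 5 and 12.

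Over the whole set, these motifs were common in the window from 250 bases before to 50 bases after the annotated start. A telo-box occurred in 31 of the 56 windows (55.4%), against 6.22% of the 27443 windows of protein-coding genes. Site II occurred in 45 of 56 (80.4%), against 21.7%, and both together in 25 of 56 (44.6%), against 2.21%. The TATA box, searched as TATAAA, occurred in 60.7% of the 56 windows, against 52.2% of all. The 130 cytosolic ribosomal protein genes outside the list held the telo-box in 45.4%, site II in 75.4% and TATAAA in 66.2%. A TGGGCC or TGGGCT match on one strand and its complement on the other were counted as separate matches where they overlapped.

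The 2 motifs differed in position. The 115 site II matches had a median position of -48, with quartiles of -85 and -17.5. The 34 telo-box matches lay around the start itself, with quartiles of -28 and 23.2, and 17 of them began after it. Genes with and without the motifs had close medians: 23 of the 25 with both were higher in CNT1, with a median log2 change of 0.31, 18 of the 20 with site II alone (0.28), 5 of the 6 with the telo-box alone (0.26) and 3 of the 5 with neither (0.27). The 5 with neither were RPL23AA, RPS5B, RPS13A, RPSAb and AT4G30800, which include the second largest rise. A match is a stretch of letters, and binding was not measured.

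**Figure D2:**
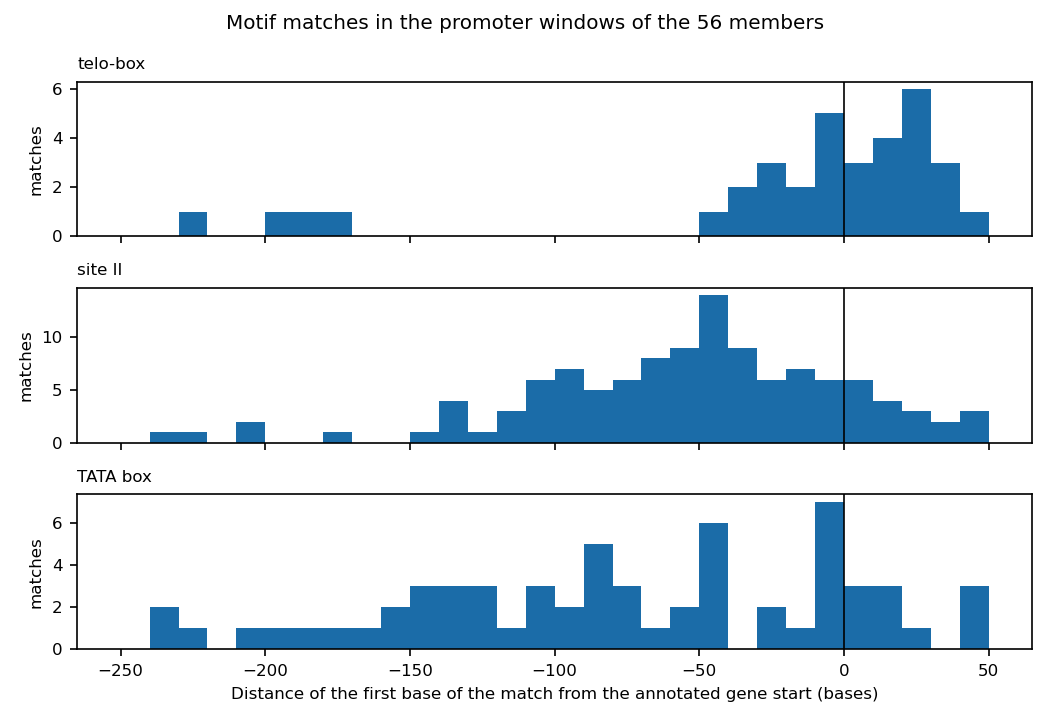
Number of matches to the telo-box (top), site II (middle) and TATAAA (bottom) by distance of the first base of the match from the annotated gene start, in bins of 10 bases, over the windows of the 56 genes. Of the telo-box matches 88.2%, and of the site II matches 82.6%, lie from 100 bases before the start onward.

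Paralogues of a family were then compared with each other. The measure was the log2 ratio, on RPKM + 1, of the more abundant over the less abundant gene within a library. There were 34 pairs in the 19 families, and pairs that share a gene are not independent. In 26 pairs (76.5%) the ratios of the genotypes did not overlap, in 20 of these (58.8% of the pairs) because the ratio was higher in both CNT1 libraries and in 6 because it was lower. Over every pair of the 19201 genes tested, taken the same way, the ratios did not overlap in 82.8% of pairs and were higher in both CNT1 libraries in 42.1%, so the share of paralogue pairs without overlap was no larger than that of gene pairs in general. With 2 libraries against 2, an exact two-sided permutation test cannot give a p below 0.333, so no pair has a test. On log2(RPKM + 1) the differences were small, with a median absolute size of 0.14 and a maximum of 0.47. No pair of paralogues was called in opposite directions. The 1 added to RPKM draws the fold change of a scarce gene towards 0, so differences in pairs with a scarce gene depend on it. In S8 the log2 fold changes of AT5G20290 and AT5G59240 were 0.23 and -0.25, and 0.23 and -0.45 with a pseudocount of 0.1.

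The widest difference was in S8. There the log2 ratio of AT5G20290 over AT5G59240, on RPKM + 1, was 7.61 and 7.92 in CNT1, against 7.31 and 7.27 in CNT1-G283E. It rests on the few reads of AT5G59240 and depends on the 1 added to RPKM. In S9 the ratio of AT5G15200 over AT5G39850 was 3.97 and 3.92 in CNT1, against 3.69 and 3.70 in CNT1-G283E, a difference of 0.25. The 2 values per genotype are too few to measure the replicate spread of this ratio. AT5G39850 rests on 397 to 481 reads per library. In L10 the ratio of SAC52 over SAG24 was 1.35 and 1.33 in CNT1, against 1.17 and 1.22 in CNT1-G283E. In each of these families the abundant gene gained weight in CNT1, and made up 99.8%, 94.2% and 71.8% of the S8, S9 and L10 transcripts in CNT1, against 99.6%, 93.1% and 69.7% in CNT1-G283E.

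The order of a pair changed in the S3 family. The ratio of AT2G31610 over AT5G35530 was 0.11 and 0.16 in CNT1, against -0.15 and -0.05 in CNT1-G283E, so that AT2G31610 was the higher of the pair in both CNT1 libraries and the lower in both CNT1-G283E libraries. In S4 the ratio of AT5G07090 over AT2G17360 was 0.38 and 0.37 in CNT1, against 0.18 and 0.17 in CNT1-G283E. The opposite direction was seen in S5, where the ratio of RPS5A over RPS5B was 0.87 and 0.88 in CNT1, against 1.10 and 1.02 in CNT1-G283E, and in L24, where that of STV1 over RPL24A was 1.07 and 1.03 in CNT1, against 1.24 and 1.16 in CNT1-G283E. In both of these families the less abundant paralogue had the larger log2 fold change.

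**Figure D3:**
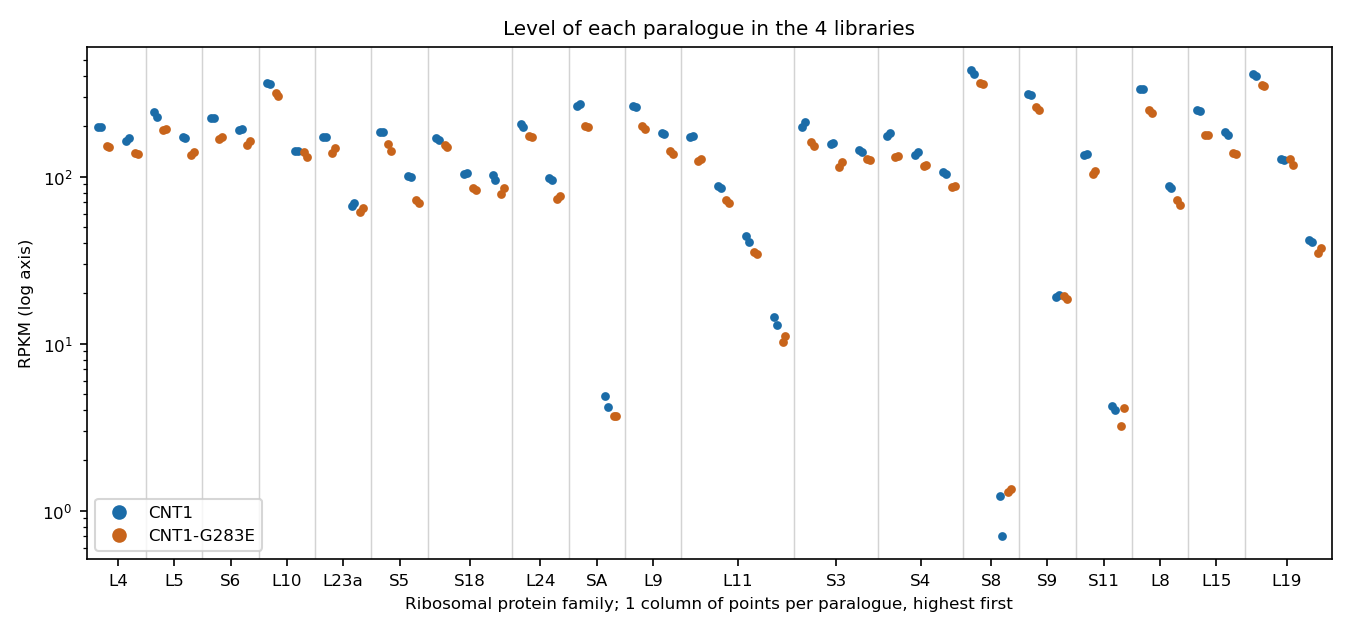
RPKM in each library, on a log axis, of the paralogues of the 19 families with more than 1 gene, without 1 gene that is not reported, with CNT1 (blue) left of CNT1-G283E (orange) in each column. CNT1 points lie slightly above CNT1-G283E points in most columns. Paralogues differ far more from each other in level than the genotypes do in S8, SA and S11, while in L4 and S6 they lie about as close together as the genotypes.

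**Figure D4:**
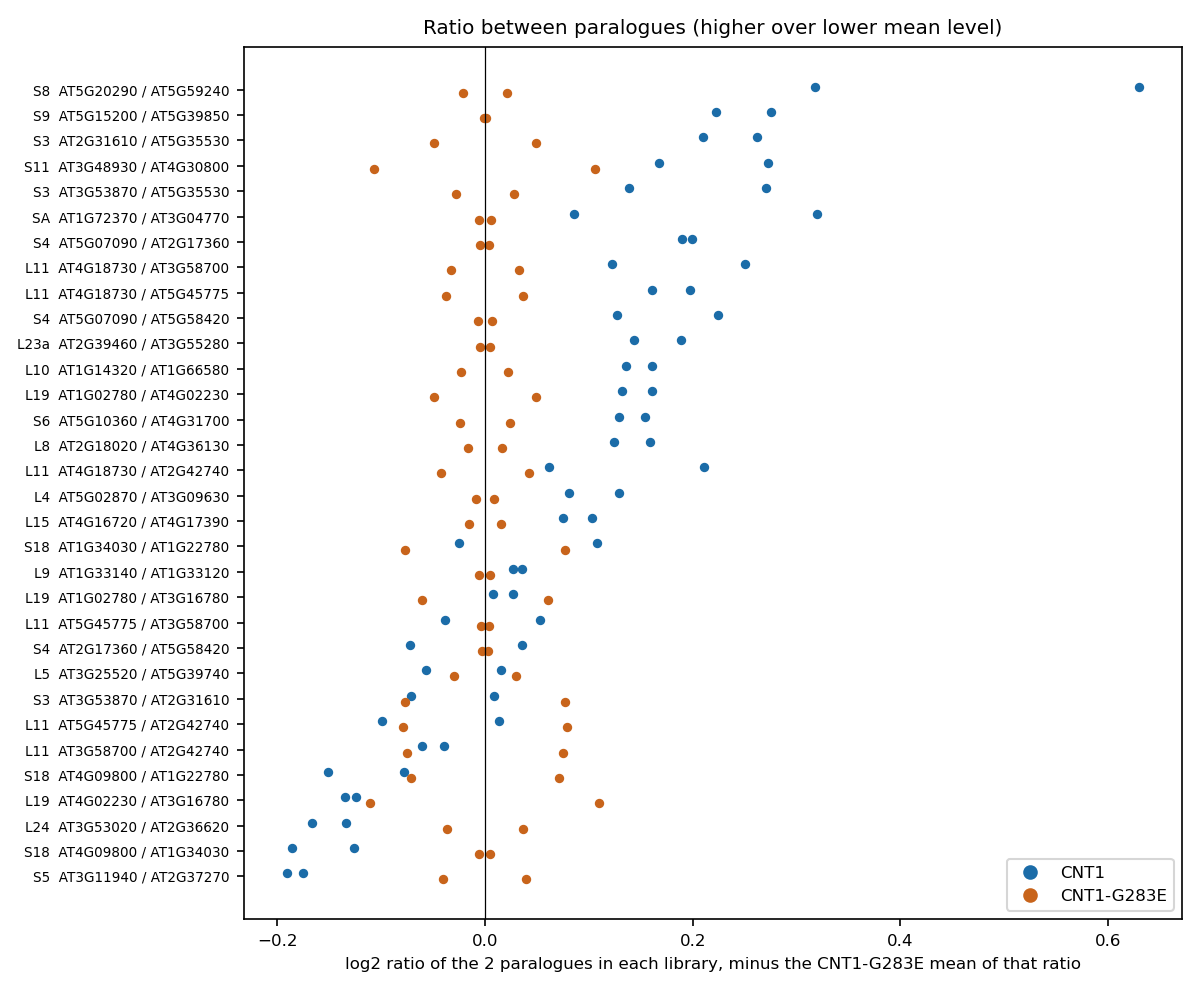
Log2 ratio of the more abundant over the less abundant paralogue in each library, after subtracting the mean ratio of CNT1-G283E for that pair, for 32 of the 34 pairs; CNT1 is drawn above CNT1-G283E in each row. In 19 of the pairs drawn both CNT1 points lie to the right of both CNT1-G283E points and in 5 to the left, with S8 the widest at 0.47.

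Fewer of the scarce genes passed the test. Of the 7 genes with a mean under 50 RPKM 3 were higher, and of the 49 above it 46 were. Over all genes tested, at any level, 31.1% were higher. Scarce genes have fewer reads and are drawn more towards 0 by the 1 added to RPKM. The part of these in the count was not tested. Of the 7 genes that did not pass the test, AT5G59240, AT4G30800 and RPSAb were the 3 least abundant of the set. AT5G39850 was also under 50 RPKM, but RPL16A was less abundant than AT5G39850 and passed the test. RPL23AB, SAG24 and AT4G02230 were not scarce.

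Most cytosolic ribosomal protein genes outside the list were also higher in CNT1. Of 130 such genes, 127 were tested, 104 were higher and 3 lower in CNT1, by a median of 0.28 on the log2 scale and a ratio of summed RPKM of 1.21. Among them, 19 were paralogues of the listed families, of which 14 were higher and 3 lower, and 108 belonged to other families, of which 90 were higher and 0 lower. By limma-voom on recovered reads, 86 of the 108 were higher and 0 lower, and at an unadjusted p under 0.05 limma had 94 higher and 0 lower. The 3 lower genes were paralogues of listed genes. RPL3B (AT1G61580), the second L3 gene, had 15.5 and 16.1 RPKM in CNT1, against 28.5 and 28.8 RPKM in CNT1-G283E, a log2 fold change of -0.82 ± 0.054 (SE; adjusted p = 7.31e-06), opposite to that of RP1. AT3G48960, of the L13 family, had 0.282 and 0.229 RPKM in CNT1, against 1.19 and 1.05 RPKM in CNT1-G283E, a log2 fold change of -0.76 ± 0.13 (SE; adjusted p = 0.00151). RPL18AA (AT1G29970) had 32.1 and 31.9 RPKM in CNT1, against 41.5 and 42.5 RPKM in CNT1-G283E, a log2 fold change of -0.38 ± 0.045 (SE; adjusted p = 0.000193).

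Other lists hold genes that build, use or regulate the ribosome. Of 17 genes of ribosome assembly and the nucleolus, 4 were higher, where 31.1% of all genes tested were, with a median of 0.07, among them NUC-L1 (nucleolin, 0.17), FIB1 (fibrillarin, 0.17) and NAP57 (pseudouridine synthase of ribosomal RNA, 0.18). None was lower by limma, while 1 was lower at an unadjusted p under 0.05 and 1 by limma-voom. Of 23 translation factors, 16 were higher and 3 lower, with a median of 0.18. The widest change among them was in AT5G12110, an elongation factor 1-beta gene, which had 39.1 and 37.9 RPKM in CNT1, against 14.4 and 13.001 RPKM in CNT1-G283E, and a log2 fold change of 1.43 ± 0.062 (SE; adjusted p = 9.29e-07). The initiation factor 5A genes split, with FBR12 (-0.31) and ELF5A-1 (-0.44) lower and ELF5A-3 (0.43) higher. Of 10 genes listed under the TOR and S6 kinase pathway, not all of them its components, 1 was higher, LST8-1 (0.27). The list had a median of -0.0036. None was lower by limma, adjusted or at an unadjusted p under 0.05, and limma-voom called 2 higher and 1 lower.

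Plastid ribosomal protein genes had larger log2 fold changes, a difference that was not tested. All 21 nuclear genes of plastid ribosomal proteins were higher, by a median of 1.15 on the log2 scale, a range of 0.37 to 1.495, and a ratio of summed RPKM of 2.07, against 1.25 for the 56 cytosolic genes. Of the 21 values, 20 lay above 0.59, the largest of the 56, and the lowest, 0.37, lay below 19 of the 56.

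Markers of other tissues moved with the genotypes as well. All 8 leaf mesophyll genes were higher, and summed to 32541 and 32242 RPKM in CNT1, against 7911 and 7912 RPKM in CNT1-G283E. Of 10 root genes 7 were tested, of which 4 were lower and 0 higher (also 0 at an unadjusted p under 0.05 and by limma-voom), and the list summed to 2115 and 2105 RPKM in CNT1, against 4455 and 4265 RPKM in CNT1-G283E. The defining root meristem genes WOX5, PLT1 and PLT2 were under 1 RPKM in every library. Of 10 genes of dividing and meristem cells 9 were tested, of which 1 (STM) was higher and 5 were lower. That list summed to 77.4 and 79.4 RPKM in CNT1, against 126.9 and 124.9 RPKM in CNT1-G283E. Over all genes tested 31.1% were higher and 29% lower, and lists as short as these give only rough shares. In whole seedlings, fewer cells of a type and less RNA per cell cannot be told apart, and the part of these markers in the ribosomal protein result was not tested.

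**Figure D5:**
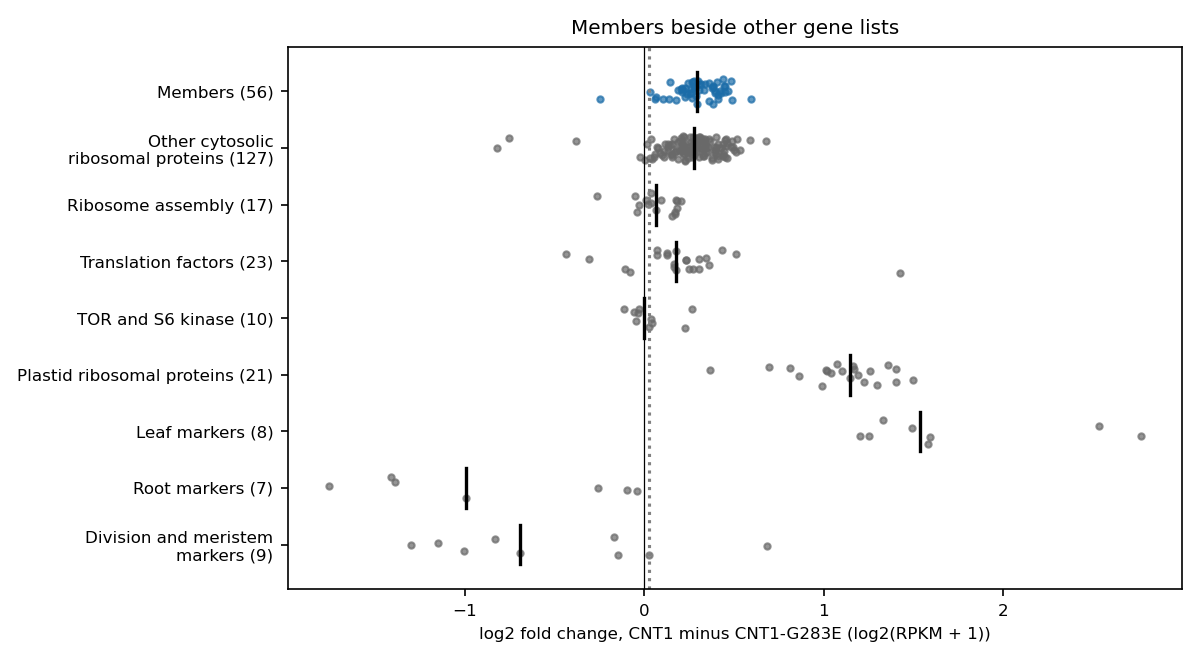
Log2 fold change, CNT1 minus CNT1-G283E, of every gene tested in the 56-gene set (blue) and in 8 other lists (grey), with the number of genes in brackets, the median of each list as a black bar and the median of all genes tested as a dotted line. Cytosolic ribosomal proteins inside and outside the set have medians of 0.29 and 0.28, plastid ribosomal proteins 1.15, leaf markers 1.54, root markers -0.996 and division and meristem markers -0.69.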

How the data were processed

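Oligo(dT)-selected mRNA was sequenced by Illumina methods, per the labels' protocols. Bowtie2 2.2.2 and TAIR10 are named, per the submitters' processing notes; for read counting, strand use and multiply matching reads, methods were not given in the sources used here. Expression was provided as RPKM: the authors deposited RPKM in 1 table per library. Depth was recovered from the RPKM values: at the denominators given, 100% of 24360 rows above 0 were whole reads within 0.001 reads, 15.5% of them at the annotated length, so reads are known up to a whole-number factor. In every library the recovered reads summed to more than the denominator. The sum was 30291037 against 28524534 in CNT1 replicate 1 and 25829954 against 24436863 in CNT1-G283E replicate 2. The cause of this excess was not tested. Intervals are not given, since replicate spread is used.

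On log2(RPKM + 1), genes reaching 1 RPKM in 2 or more libraries entered a limma 3.58.1 fit (R 4.3.3) with an intensity trend and Benjamini-Hochberg adjustment. Fold changes on this scale understate the change of low genes. Alternatives were other scalings, filters, pseudocount 0.1, no trend, limma-voom on recovered reads, the replicate number as a block, and each library left out. The fitting script was checked on simulated data with an assumed dispersion of 0.002. It recovered 34% of genes changed 1.25-fold and 88% of those changed 1.5-fold. Of 50 genes changed by each fold, the right calls were 17 at 1.25-fold, 44 at 1.5-fold, 48 at 2-fold and 50 at 4-fold. Beside these there were 19 false calls among the 19166 genes simulated. Far fewer genes were changed there than were called in these data, so the check does not give the error rate here.

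TAIR10.1 from RefSeq gave names, coordinates and promoter bases for 26719 of 27416 rows. Family names follow the annotation and standard Arabidopsis usage. The 56 genes and the other lists were chosen with earlier results of these data known. Genes named with values in every library are the 3 highest and 3 lowest in level, the 5 largest rises and falls, paralogues that differ by 0.5 or more, and genes known from mutants or S6 kinase; others named were chosen after their values were seen. The result of 1 of the 56 genes is not reported here singly; it is in the counts, sums and medians.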

Additional observations from a re-analysis of the deposited data

How the results depend on the processing

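Over 15 refits the number of the 56 genes higher in CNT1 stayed between 44 and 51, and 0 were lower in each; 43 of the 49 were higher in all 15. Leaving out each library gave 44 to 51 genes higher and a median of 0.28 to 0.31. The median was 0.27 with upper-quartile scaling, 0.26 with median-of-ratios scaling, 0.28 with limma-voom and 0.28 without organelle genes; the cause was not tested. With a 1.5-fold minimum 1 gene was higher, which follows from the size of the changes. At a mean of at least 5 RPKM 53 genes were tested. The calls lost in some refits were RP1, RPS18C, RPL16A, AT5G35530, emb2386 and AT3G16780, each with 1 or the other CNT1 library left out, and for RPS18C (adjusted p = 0.0725) and AT3G16780 (0.0559) also without the trend. AT4G30800 changed sign without CNT1-G283E replicate 1, to -0.0065. Paralogue ratios did not overlap in 24 pairs with a pseudocount of 0.1 and in 27 with quantile scaling. The replicate numbers do not pair the libraries by any label, and the correlation of same-numbered deviations was -0.023 over 19201 genes; with the replicate block 49 genes were higher, 0 lower, and the median was 0.29. With 2 libraries per genotype precision is limited, most of all for AT5G59240, which rests on 17 to 30 reads.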
